A study of Mus musculus with 4 samples.

Results

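The genes described here are Mcm2, Mcm3, Mcm4, Mcm5, Mcm6 and Mcm7, which encode the subunits of the replicative helicase, together with Pcna, which encodes the sliding clamp of the DNA polymerases. They were chosen by name, as every probe whose gene name in the scanner files was one of these 7 symbols. This gave 9 probes of 41174 on the array, for 7 of 27594 genes with a value. All 7 genes passed the filter on low signal.

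The RNA came from the maxilla, the mandible, the ilium and the femur of 35-day-old male C57BL/6 mice. Each bone was measured on 1 Agilent whole mouse genome array in 1 colour, and the number of mice behind each RNA sample is not stated. The maxilla and mandible are called jaw bones, and the ilium and femur trunk and limb bones, following the title of the series. RNA was taken from the bones as removed, with no sorting of cells stated, and in such bulk RNA fewer cells of a type and less RNA per cell cannot be told apart.

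Before a cell copies its DNA, its replication origins are licensed. The origin recognition complex, Cdc6 and Cdt1 load the MCM hexamer onto DNA in the G1 phase, and the hexamer stays idle until S phase kinases and the cofactors Cdc45 and GINS turn it into the working helicase. PCNA is then loaded behind it by replication factor C and holds the polymerases, DNA ligase and many repair proteins on the template. Transcripts of these genes are high in dividing cells and low in resting ones, and in young bone the marrow is a known home of dividing blood cell precursors.

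In mammals, E2F factors are known to act on promoters of Mcm genes, so the promoter letters of the members are shown first. RefSeq (GRCm38.p6) promoter entries, each from 250 bases before to 50 bases after a gene start, were found for 6 of the 7 genes, all but Mcm4, with 2 entries for Mcm7. The E2F forms TTTCGCGC and TTTGGCGC were searched on both strands. At least 1 form was found in 4 of the 6 genes, Mcm3, Mcm5, Mcm6 and Mcm7, and in 0.813% of all 32851 promoter entries of this length. Capitals mark the matched letters below, which are printed 5′ to 3′ on the strand of the gene.
Mcm6 (chr1:128359731-128359830, minus strand): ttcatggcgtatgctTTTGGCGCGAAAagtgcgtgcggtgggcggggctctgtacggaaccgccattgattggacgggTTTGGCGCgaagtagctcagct
Mcm5 (chr8:75109312-75109411, plus strand): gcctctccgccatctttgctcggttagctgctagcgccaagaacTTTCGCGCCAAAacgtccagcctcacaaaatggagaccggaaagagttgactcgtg
Mcm7 (chr5:138171849-138171878, minus strand): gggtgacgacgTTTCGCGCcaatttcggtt
Mcm3 (chr1:20820263-20820292, minus strand): cgggaaaacttgggaagtTTTGGCGCcaag
Mcm6 held 3 matches, 2 that overlap from positions -110 and -106 and 1 from position -47, counted from the gene start. Its longer run in capitals is TTTGGCGC read on the gene's strand, overlapping TTTCGCGC read on the other strand. Mcm5 held 2 matches that overlap, TTTCGCGC on the gene's strand from position -153 and TTTGGCGC on the other strand from position -149. The matches of Mcm7 and Mcm3 lay past the start, from positions 17 and 39. Neither form was in the windows of Mcm2 and Pcna. CCAAT, the letters of the NF-Y box, was in at least 1 entry of all 6 genes and in 37.4% of all entries. These are matches of letters only.

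Each member had 1 main probe, the brightest of its gene, and its level is given as signal in multiples of the 75th percentile of the same array. Probes differ in brightness for reasons of sequence, so levels are compared between bones and not between genes.

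Mcm2, the subunit that also carries histones at the fork, showed the widest separation (probe on chromosome 6, 88849266 to 88849325, build mm8). Its level was 0.947 in the maxilla and 1.76 in the mandible, against 7.69 in the ilium and 9.42 in the femur. Both jaw values lay well below both trunk and limb values, and Mcm2 was 6.58-fold lower in the jaw (log2 difference -2.72 ± 0.39, SE over 2 bones per class; limma adjusted p = 0.0382).

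Mcm5 forms with Mcm2 the gate through which DNA enters the ring (probe on chromosome 8, 78023523 to 78023583). It stood at 1.91 in the maxilla and 4.21 in the mandible, against 17.0 in the ilium and 18.4 in the femur. The classes again did not overlap, and Mcm5 was 6.24-fold lower in the jaw (-2.64 ± 0.46, limma adjusted p = 0.0484).

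Mcm3, the neighbour of Mcm5 in the ring, had 2 probes that measured the same pattern. The main probe (chromosome 1, 20788189 to 20788248) gave 2.46 in the maxilla and 5.66 in the mandible, against 15.5 in the ilium and 17.3 in the femur. The second (chromosome 1, 20790433 to 20790949) gave 0.674 and 1.53 in the maxilla and mandible, against 4.98 and 5.47 in the ilium and femur. The log2 differences were -2.13 ± 0.48 and -2.36 ± 0.47, and neither passed the threshold (limma adjusted p = 0.0706, and 0.0551 with every probe fitted on its own). Of the members, Mcm3 had the largest distance between the 2 jaw bones.

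Mcm4, Mcm6 and Mcm7 can form a core with helicase activity of its own in the test tube. Mcm4 (chromosome 16, 15537857 to 15537916) stood at 6.59 in the maxilla and 10.5 in the mandible, against 31.8 in the ilium and 33.8 in the femur. It was 3.94-fold lower in the jaw (-1.98 ± 0.31, limma adjusted p = 0.0427). A second Mcm4 probe (chromosome 16, 15546858 to 15546917) was not well above background on any array, so no fold is given for it.

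Mcm7, whose gene carries a cluster of microRNAs in an intron, stood at 5.85 in the maxilla and 11.04 in the mandible, against 36.1 in the ilium and 35.5 in the femur (chromosome 5, 138394485 to 138394544). The difference was -2.16 ± 0.38, a fold of 4.46, with a limma adjusted p of 0.0502, which just missed the threshold. Mcm6 had the smallest difference (chromosome 1, 130159147 to 130159206). It stood at 10.1 in the maxilla and 18.8 in the mandible, against 43.3 in the ilium and 49.5 in the femur, which gave -1.75 ± 0.38 (limma adjusted p = 0.0673).

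Pcna (chromosome 2, 131941125 to 131941262) was printed in 10 spots on each array, and each probe of the other members in 1. Its spots ranged from 9373 to 10699 signal units in the maxilla and from 17960 to 20492 in the mandible, against 53729 to 60631 in the ilium and 65723 to 74546 in the femur. No spot was an outlier, and no 2 bones had overlapping ranges. Relative to the 75th percentile, Pcna stood at 12.5 in the maxilla and 16.9 in the mandible, against 50.0 in the ilium and 58.4 in the femur. It was 3.71-fold lower in the jaw (-1.89 ± 0.26, limma adjusted p = 0.0367), with the smallest SE of the 7. Between spots of 1 array the SD was 0.047 to 0.0595 on the log2 scale, which is error of printing and scanning only.

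**Figure D1:**
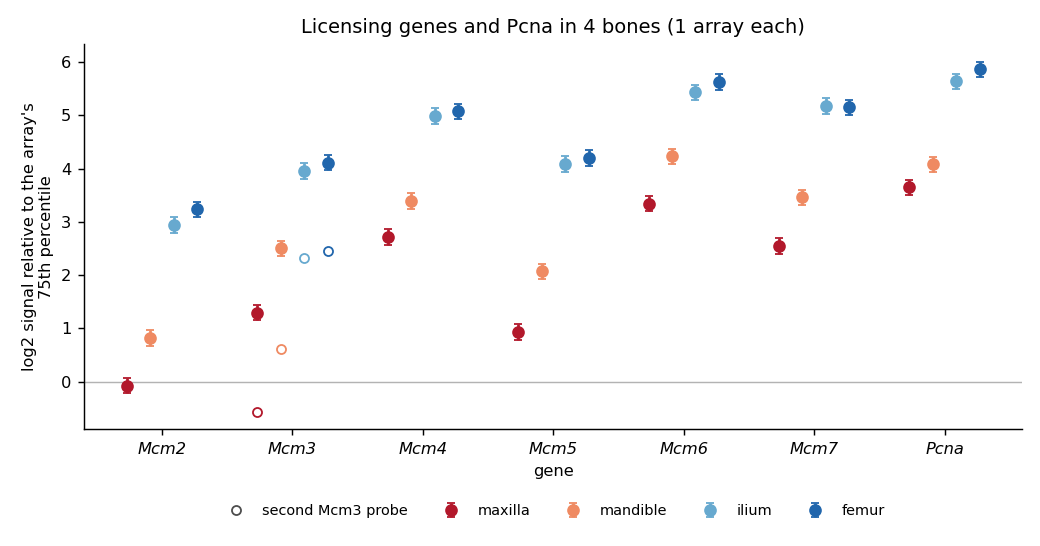
Log2 signal of each gene minus the log2 75th percentile of its array (vertical axis) by gene (horizontal axis) in the maxilla, mandible, ilium and femur, 1 array each; bars are the scanner software's error for 1 array and open circles the second Mcm3 probe. Both jaw points lie below both trunk and limb points for all 7 genes, with gaps of 1.21 to 2.12, and heights of different genes are not comparable.

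All 7 genes were thus lower in both jaw bones than in the ilium and femur without overlap, as were 36.3% of the 20616 genes tested. By the stricter rule of a gap of at least 2-fold between the classes, all 7 counted as lower, against 9.82% of genes tested that were lower and 9.34% that were higher. Limma with Benjamini-Hochberg adjustment over all genes called 4 of 7 lower (Mcm2, Mcm4, Mcm5 and Pcna) and 0 higher, against 7.25% of genes called lower and 4.51% called higher (11.8% in all). The other 3 genes had an unadjusted limma p below 0.05 and adjusted p from 0.0502 to 0.0706. An unadjusted p below 0.05 is common here, with 7082 of the 20616 genes tested. The median difference was -2.13 over the 7 genes and -0.03 over all genes tested. With 2 bones per class the test measures the spread between bones and not between animals. The members' calls were lost without the ilium or without the femur, as were the calls of all other genes. They rose without the maxilla or without the mandible, as did calls over all genes. The members' median difference was -2.14 without the ilium, -2.05 without the femur, -1.67 without the maxilla and -2.62 without the mandible. Quantile normalization left 2 calls, and no filter on background left 0, with all 7 at an unadjusted p below 0.05 in both. Over all genes, 6922 of 20616 with quantile normalization and 7261 of 27594 with no filter had such a p.

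**Figure D2:**
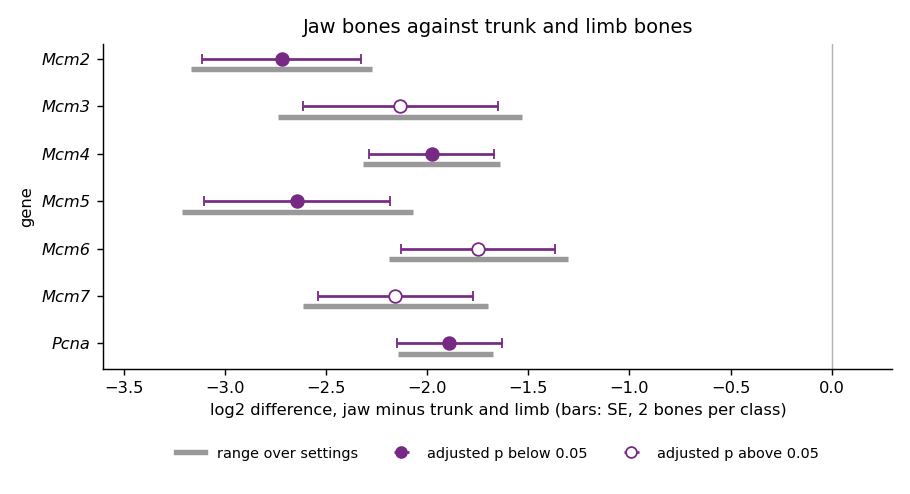
Log2 difference of jaw minus trunk and limb bones (horizontal axis) for each gene (vertical axis), with the SE from limma over 2 bones per class; filled points passed an adjusted p of 0.05, and grey bars span the values over all settings tried. All values lie below 0, from -3.21 to -1.30 over the settings.

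The differences were not of 1 size. Mcm2 minus Mcm6 on the log2 scale was -3.42 in the maxilla and -3.41 in the mandible, against -2.49 in the ilium and -2.39 in the femur. These 2 were picked as the members with the largest and the smallest difference, so the 0.97 between their differences is fixed by that choice, and array scaling cancels in it. Set against the mean of the 6 Mcm genes in the same bone, Mcm2 and Mcm5 lay lower in both jaw bones than in both trunk and limb bones, by 0.49 and 0.41. Mcm6 and Mcm4 lay higher in the jaw by 0.48 and 0.25, and the bones overlapped for Mcm3 and Mcm7. Because the mean is that of the same 6 genes, their deviations cancel out, and some must lie higher where others lie lower. These are descriptions of 4 arrays without a test. The size of the difference also moved with the brightness of the probe: dimmer probes of the members had larger differences (Spearman rho = 0.79 and Pearson r = 0.87 between trunk and limb signal and signed difference, over 7 probes of the same 4 arrays). The part of probe brightness in these unequal differences was not tested.

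**Figure D3:**
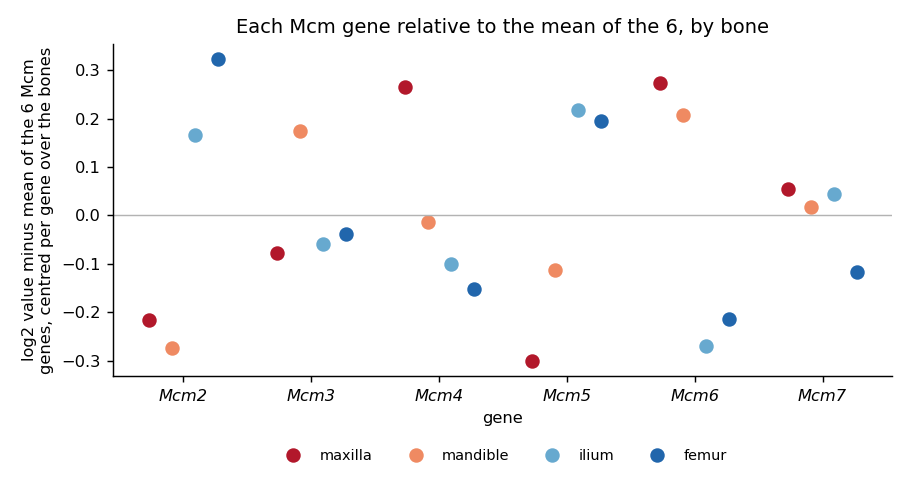
Log2 value of each Mcm gene minus the mean of the 6 Mcm genes in the same bone, centred per gene over the 4 bones (vertical axis), by gene (horizontal axis), 1 point per bone. Mcm2 and Mcm5 lie lower in the 2 jaw bones, Mcm4 and Mcm6 lie higher there, and Mcm3 and Mcm7 overlap.

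Within the jaw, the maxilla had the lower level of all 7 genes. The log2 difference of maxilla minus mandible was largest for Mcm3 (-1.20) and Mcm5 (-1.14), the 2 members past 2-fold, against 8.32% of genes tested that were lower in the maxilla by as much and 13.5% that were higher. It was -0.92 for Mcm7, -0.90 for Mcm2, -0.89 for Mcm6, -0.67 for Mcm4 and -0.44 for Pcna. With 1 array per bone there is no test, and the spread between animals is unknown. The scanner software's error of 10.0% per array, 0.20 for a log2 difference of 2 arrays, covers the measurement of a spot only. With each array centred on its median, or in the deposited series table, 5 of 7 members were past 2-fold.

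The ilium and femur were close to each other. The log2 difference of ilium minus femur lay between -0.29 for Mcm2 and 0.02 for Mcm7, and 0 of 7 genes were past 2-fold, against 1.57% of genes tested lower and 2.27% higher in the ilium. These differences have no test either. In 6 of 7 genes the levels ran upward in the order maxilla, mandible, ilium, femur, as in 17.9% of genes tested. The step between mandible and ilium was the largest of the 3 steps for all 7 genes, from 2.31-fold for Mcm6 up to 4.36-fold for Mcm2. Whether neighbours in this order differ beyond the spread between animals cannot be told from 1 array each.

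The machinery around the hexamer was lower in the jaw too, though not every part of it. Over 6 lists of replication genes apart from the 7 members, 29 of 69 genes were called lower by limma and 0 higher. By the 2-fold gap rule 46 lay lower, and the median difference was -1.84. Of all genes tested, limma called 7.25% lower and 4.51% higher, and 9.82% lay lower by the gap rule. Their calls were lost without the ilium or the femur and rose without the maxilla or the mandible, as did calls over all genes. The median was -1.98 without the ilium, -1.73 without the femur, -1.50 without the maxilla and -2.15 without the mandible. The count of the 69 called lower was 46 with normexp background correction, 15 with quantile normalization and 7 with no filter on background. Over all genes, limma called 1501 of 20616, 1279 of 20616 and 724 of 27594 lower in these settings.

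Among the 12 origin licensing genes, 7 fell and 0 rose (median -1.65). Orc1, the ATPase subunit of the origin recognition complex that comes and goes with the cell cycle, differed by -3.21 ± 0.39 (limma adjusted p = 0.0339). Cdc6, the loader of the hexamer, differed by -3.16 ± 0.41 (adjusted p = 0.0344), and a second Cdc6 probe gave -2.74. These exceed the difference of any member. Cdt1 (-2.63), its inhibitor Gmnn (-1.89), the kinase Cdc7 (-1.96), its activator Dbf4 (-2.10) and Orc6 (-1.42) also fell. The remaining subunits of the origin complex did not pass the test: Orc2 differed by -0.65, Orc5 by -0.93, Orc3 by 0.16 and Orc4 by 0.05. Mcmbp, which binds the Mcm proteins outside chromatin, differed by -0.62 and did not pass either.

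Relatives of the members by name gave 0 of 4 calls by limma, with 2 at an unadjusted p below 0.05. It called 1 with normexp. The count also rose without the maxilla or without the mandible, as did calls over all genes, and the list median was -0.67 and -1.11 in these fits. Mcm10, an essential factor of helicase activation, differed by -2.64 (adjusted p = 0.0605), in the range of Mcm2 and Mcm5. Mcm8 and Mcm9, which act in recombination repair, differed by -1.23 and -0.34, and Mcm3ap by -0.45.

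Of 12 genes of helicase activation and fork protection, 6 were called lower and 0 higher (median -2.07). Clspn, the checkpoint mediator claspin, differed by -3.11 ± 0.53 (limma adjusted p = 0.0475) and the helicase Recql4 by -2.87 ± 0.34 (adjusted p = 0.0336). The helicase cofactors Cdc45 and Gins1 differed by -2.08 and -2.06 and were called, while Gins2, Gins3 and Gins4 (-1.44, -1.70 and -1.07) were not.

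Polymerase, clamp loading and lagging strand genes had 10 of 23 called lower and 0 higher (median -1.76). The nuclease and helicase Dna2 (-2.58 ± 0.30) and the flap nuclease Fen1 (-2.47 ± 0.28), a PCNA partner, had the largest called differences. Both had a limma adjusted p of 0.0325, the lowest over all genes tested and a value that other genes share. Of the clamp loader genes, Rfc4 (-1.72) and Rfc5 (-1.52) were called, Rfc3 (-1.64, adjusted p = 0.0504) just missed the threshold, and Rfc2 and Rfc1 differed by -0.99 and -0.63 without passing it. Of 8 nucleotide supply genes 5 were called lower, led by thymidine kinase Tk1 (-2.72 ± 0.48, adjusted p = 0.0499) and deoxycytidine kinase Dck (-2.70 ± 0.31, adjusted p = 0.0331). Among 10 PCNA partners and modifiers, limma called 1, Rad18, the ligase that ubiquitinates PCNA (-2.04 ± 0.22, adjusted p = 0.0325), although the list's median of -2.06 was near that of the members and 8 had an unadjusted p below 0.05. The count was 5 with normexp or with genes well above background on all arrays, and 3 with every probe fitted on its own. It rose without the maxilla or the mandible, as did calls over all genes, and all calls were lost without the ilium or the femur. The list median was -1.51 without the maxilla and -2.43 without the mandible.

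The G1/S control genes moved both ways, with 8 of 22 called lower and 2 higher (median -1.73). E2f8, a repressor of the E2F family, differed by -3.31 ± 0.36 (limma adjusted p = 0.0325; -2.25 by a second probe), and Ccne1, encoding the S phase cyclin E1, by -2.86 ± 0.38 (adjusted p = 0.0357). The genes that rose in the jaw were Ccnd1, encoding the G1 cyclin D1, and E2f5. Ccnd1 had log2 values of 2.18 and 2.05 in the maxilla and mandible, against 0.60 and 0.17 in the ilium and femur, a difference of 1.73 ± 0.25 (adjusted p = 0.0383). E2f5, a factor that pairs with pocket proteins in resting cells, differed by 1.38 ± 0.22 (adjusted p = 0.0430). Both of these calls were lost with each array centred on its median, with the series table, with no filter on background and without the ilium or the femur, and 1 of them with quantile normalization. Of the other D cyclin genes, Ccnd3 fell by 2.09, while Ccnd2 differed by 0.68 and was not called. Without the ilium or the femur all limma calls of this list were lost, as over all genes.

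The genes of CDK inhibitors gave 0 of 6 calls by limma, with 2 lower and 2 higher at an unadjusted p below 0.05. Limma called 3 each with normexp and with genes well above background on all arrays. The count also rose without the maxilla or the mandible, as did calls over all genes. Cdkn2c and Cdkn2d, inhibitors of the cyclin D kinases, differed by -1.63 and -2.14 (adjusted p = 0.0518 and 0.0590), while Cdkn2b, of the same inhibitor family, differed by 1.62 (adjusted p = 0.0511) and Cdkn1a, encoding p21, by 1.70 (adjusted p = 0.115). Their median of 0.49 became -0.02 without the mandible. All 12 mitosis genes were lower by the gap rule and limma called 6 of them (median -2.39). Ccnb2, a mitotic cyclin gene, differed by -2.92 ± 0.44 and the spindle motor gene Kif11 by -2.55 ± 0.39 (adjusted p = 0.0402 and 0.0408; other Kif11 probes gave -2.18 and -3.50). Limma called 11 of the mitosis genes with normexp, 4 with quantile normalization and 1 with no filter. Their calls were lost without the ilium or the femur and rose without the maxilla or the mandible, as did calls over all genes.

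**Figure D4:**
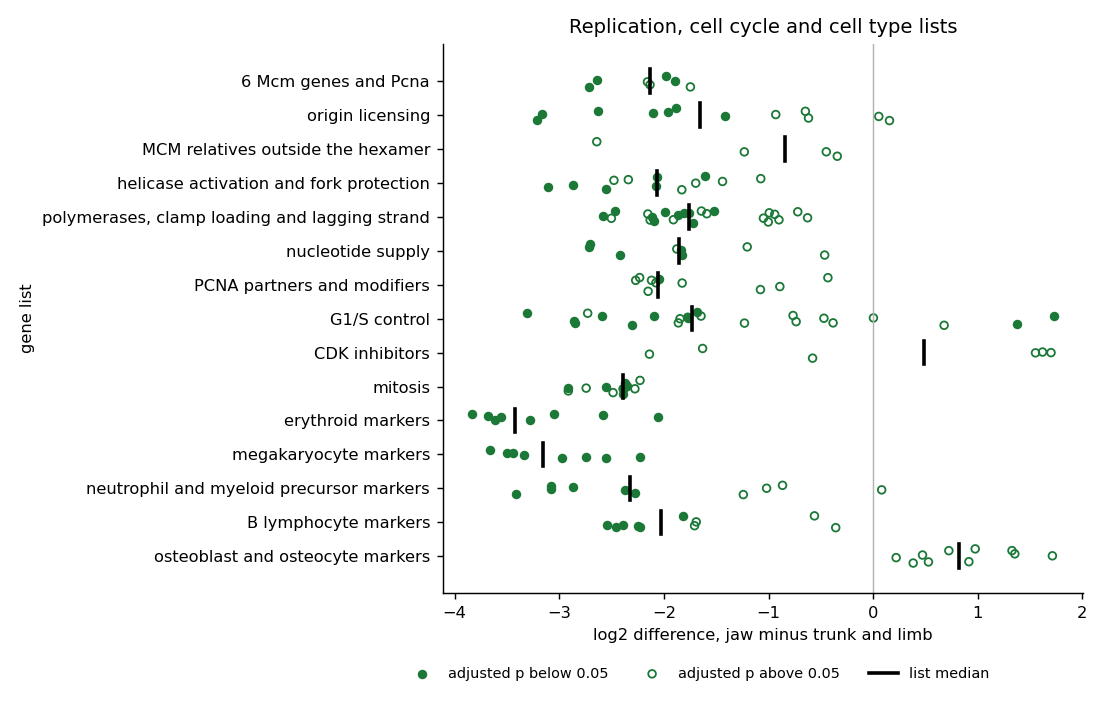
Log2 difference of jaw minus trunk and limb bones (horizontal axis) for each gene of the members, of replication and cell cycle lists and of cell type marker lists (vertical axis); filled points passed a limma adjusted p of 0.05 and black bars are list medians. The 7 members lie between -2.72 and -1.75, and the erythroid and megakaryocyte medians of -3.42 and -3.15 lie lower still.

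Most markers of marrow cells were, like the members, lower in the jaw, though S100a9 differed by 0.08 and Ebf1 by -0.36. All 8 erythroid markers with a value and all 8 megakaryocyte markers were called lower in the jaw, as were 6 of 10 neutrophil and myeloid precursor markers and 6 of 10 B lymphocyte markers, with 0 higher. None of these marker calls remained without the ilium or the femur, where limma called 0 genes in all. The median differences were -3.42, -3.15, -2.32 and -2.03 in that order. Summed over the list, signal relative to the 75th percentile was 33.1 in the maxilla and 49.6 in the mandible, against 267 in the ilium and 299 in the femur for erythroid markers. The megakaryocyte sums were 22.6 and 31.1 in the maxilla and mandible, against 131 and 163 in the ilium and femur. The neutrophil sums were 569 and 417 in the maxilla and mandible, against 878 and 871 in the ilium and femur, and of the 10 neutrophil markers Ltf and S100a9 alone had more signal in the maxilla than in the mandible. The B lymphocyte sums were 30.1 and 31.7 in the maxilla and mandible, against 71.9 and 87.8 in the ilium and femur. For the 7 members the sums were 40.4 and 68.9 in the maxilla and mandible, against 201 and 222 in the ilium and femur. Every measured marker of these 4 lists was well above background on all arrays. The part of marrow cell content in the differences of the members was not tested.

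Markers of bone and of other tissues did not share 1 pattern. The bones expressed all 10 osteoblast and osteocyte markers. Their sums were 415 in the maxilla and 437 in the mandible, against 331 in the ilium and 278 in the femur. Limma called 0 of the 10, with 3 higher at an unadjusted p below 0.05. Some were called without the maxilla or the mandible, where calls rose over all genes. Tooth matrix markers summed to 96.2 and 263 in the maxilla and mandible, against 0.383 and 0.191 in the ilium and femur, where Enam, Mmp20, Odam and Amtn were not well above background, nor was Dspp in the femur. Stratified epithelium markers summed to 92.6 and 123 in the maxilla and mandible, against 4.58 and 4.77 in the ilium and femur. Most of the ilium and femur sums came from Sfn, with log2 values of 2.00 and 2.06 there. Sfn differed by 0.56 between the classes (limma adjusted p = 0.140), against a list median of 6.69. Limma called 6 of the 7 tested epithelium markers, all higher in the jaw. Skeletal muscle markers summed to 104 in the maxilla and 607 in the mandible, against 776 in the ilium and 760 in the femur. Cartilage markers summed to 10.0 in the maxilla and 13.3 in the mandible, against 38.0 in the ilium and 5.54 in the femur. Matn3 was well above background in the ilium alone, and Col10a1 in the maxilla and ilium alone. Limma called 1 of the 7 tested cartilage markers, Sox9, which was higher in the jaw by 3.88 (adjusted p = 0.0367). Between the jaw bones, the median of maxilla minus mandible was -0.90 for the members and -1.02 for mitosis genes, -0.67 for erythroid, -0.45 for neutrophil, -0.37 for megakaryocyte and -0.10 for B lymphocyte markers. It was -2.74 for muscle, -2.37 for tooth matrix, -1.09 for stratified epithelium, -0.46 for cartilage and -0.44 for osteoblast markers. The part of these tissues in the lower levels of the maxilla was not tested.

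The genes whose pattern over the 4 bones lay nearest to the mean pattern of the members were found by Euclidean distance of log2 values, each gene centred on its own mean. The 10 nearest of the other genes lay at distances of 0.039 to 0.111, and 9 of them were Dscc1, Gsdme, LOC677447, Lig1, Parpbp, Ngp, Nuf2, Tbx21 and Pclaf. Dscc1 encodes a subunit of an alternative clamp loader, Lig1 the DNA ligase that seals lagging strand fragments and Pclaf a PCNA binding protein, while Ngp is a neutrophil granule gene. The members themselves lay at 0.128 (Mcm7) to 0.547 (Mcm2) from their mean, and 548 other genes lay nearer to it than Mcm2. Over 4 points from the same arrays this likeness is a description only.

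Across the arrays, the share of the 43379 gene spots well above background was 72.8% to 75.5%, and 0 spots were saturated. The 75th percentile of the signal was 809 in the maxilla and 1142 in the mandible, against 1142 in the ilium and 1208 in the femur, so the maxilla values were scaled up most. Limma called 1494 genes lower and 929 higher in the jaw (38.3% of calls higher), and 26.8% of calls were higher with each array centred on its median and 27.2% with the series table. Under both scalings the all-gene median was -0.28 in place of -0.03, and the members' median -2.39 in place of -2.13. Precision is limited by having 4 arrays.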

How the data were processed

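The members and gene lists were chosen with earlier results of these data known. The authors deposited spot intensity values from Agilent Feature Extraction 9.5.3.1, with spatial and multiplicative detrending on, per the file headers. They also deposited a series table of log2 values, which within 0.01 were log2 ratios to the ilium minus a constant per array for over 99% of probes (column medians -0.218 maxilla, -0.133 mandible, 0 ilium, 0.0233 femur); how these constants were set stays unknown. Values here are log2 processed signal minus the array's 75th percentile. Spots with an outlier mark were dropped on that array, and the remaining spots of a probe averaged. A gene is its brightest probe. Genes that 2 or more of the 4 arrays measured well above background (20616) were fitted with limma 3.58.1 in R 4.3.3 (lmFit, eBayes, Benjamini-Hochberg, threshold 0.05), on 2 residual and 1.76 prior degrees of freedom. Of 41174 probes, 24375 were named by accession, 6301 by current and 2426 by older symbol through RefSeq GRCm38.p6, and 8072 kept the file's name. Probe positions are mm8 per the file headers, and exon or UTR positions were not analysed here. The list genes named by rule are the 2 largest called differences per list and any opposite difference of at least 1; other list genes were named after their values were seen. Of the 10 genes nearest in pattern, 1 is not reported here. All arrays lay on 1 slide, so array position and bone cannot be told apart. Alternatives changed the background correction, scaling, filter, outlier rule and probe choice, used the series table, or left out a bone.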

Additional observations from a re-analysis of the deposited data

How the results depend on the processing

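Every member kept a negative jaw minus trunk and limb difference under all alternatives. The number of members called lower by limma, 4, was 2 with quantile normalization and 0 with no filter on background, which tests more genes, and ran from 0 to 7 when a bone was left out (0 without the ilium or the femur; 7 without the maxilla or the mandible). With a bone left out, the lone bone of a class is assumed to vary like the others. Over all genes, 1494 lower and 929 higher calls became 724 and 396 with no filter, and, counted over 31116 probes and not over genes, 2455 and 1532 with every probe fitted on its own. Leaving out a bone gave from 0 to 4159 lower and from 0 to 4045 higher calls, with 3550 (without the ilium) and 2628 (without the femur) genes at an unadjusted p below 0.05 where limma called 0. The higher calls were 593 with quantile normalization, 603 with median centring and 575 with the series table. Between maxilla and mandible, 2 members past 2-fold became 5 with median centring and 5 with the series table. With a bone left out, the CDK inhibitor median (0.49) ran from -0.017865 without the mandible to 0.56 without the maxilla, and the cartilage marker median (-0.32) from -2.03 without the femur to 1.18 without the ilium. The cause of these shifts was not tested. No paired analysis was possible because each bone has 1 array and the labels give no replicate numbers. The main probes of all members lay well above background on all arrays, and the second Mcm4 probe on none.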
